A study of Mus musculus with 3 samples.

Results

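The AP-1 family genes Fos, Fosl1, Fosl2, Jun, Junb and Jund, the related genes Atf3 and Maff, and Egr1 were followed in brown adipocytes through the first 2 h of β-adrenergic stimulation. They were taken by name: every probe set of the array whose annotation gives exactly 1 of these 9 symbols was read, 13 of 45101 probe sets in all. The cells were iBATs, a line made from the stromal vascular fraction of interscapular brown fat of newborn C57BL/6 mice with SV40 large T antigen, differentiated with insulin and indomethacin and harvested on day 8 of differentiation. There was 1 array for each of 3 groups, ISO for 0 h, 1 h and 2 h (isoproterenol, an agonist of all β-adrenergic receptors, 1 μM in the legend of the study). The 0 h array was the only array without ISO, so that ISO cannot be told apart from handling of the cells or from time in culture, and with 1 array per time there was no replicate error and no test.

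AP-1 is a dimer of basic leucine zipper (bZIP) proteins, usually a FOS protein with a JUN protein. It binds DNA at the TRE (searched here as TGANTCA, with any central base). In other combinations it binds at the cyclic AMP response element or CRE (TGACGTCA). JUN proteins can pair with each other, whereas FOS proteins need a JUN partner, and ATF3 and the small MAF protein MAFF are bZIP proteins that join the same network. EGR1 is a zinc finger factor of another family that is induced early by many of the same stimuli. Most of the genes are immediate early genes in many cell types: β-adrenergic receptors raise cyclic AMP, protein kinase A phosphorylates CREB at CREs, and MAP kinases act on ternary complex factors and the serum response factor at CArG boxes.

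The stretch just before the transcript start is shown for 6 genes whose signal passed the threshold of change at 1 or 2 h. RefSeq promoter windows of GRCm38.p6 were found for 7 of the 9 genes, with 3 transcript starts for Maff and 9 windows in all. Fosl1 and Egr1 were not among them. Of the 3 starts of Maff only the second is shown, the 1 whose window holds the complete CRE. Each line gives the 150 bases that end at the base before the start, 5′ to 3′ on the strand of the gene, and capitals mark matches to the searched motifs on either strand. The stretches are chr12:85473740-85473889 (+) for Fos, chr8:84978749-84978898 (-) for Junb, chr5:32136322-32136471 (+) for Fosl2, chr1:191183334-191183483 (-) for Atf3, chr15:79347370-79347519 (+) for the second start of Maff and chr4:95052223-95052372 (-) for Jun, all upstream of the annotated transcript.
Fos: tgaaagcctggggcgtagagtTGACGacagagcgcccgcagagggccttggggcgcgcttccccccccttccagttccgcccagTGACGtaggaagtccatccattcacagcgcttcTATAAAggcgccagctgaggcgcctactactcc
Junb: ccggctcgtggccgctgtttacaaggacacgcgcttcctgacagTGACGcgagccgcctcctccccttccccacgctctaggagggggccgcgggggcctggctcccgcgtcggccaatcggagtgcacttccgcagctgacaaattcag
Fosl2: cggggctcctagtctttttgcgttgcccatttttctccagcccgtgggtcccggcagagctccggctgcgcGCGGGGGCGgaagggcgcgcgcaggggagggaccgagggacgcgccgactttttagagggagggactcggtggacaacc
Atf3: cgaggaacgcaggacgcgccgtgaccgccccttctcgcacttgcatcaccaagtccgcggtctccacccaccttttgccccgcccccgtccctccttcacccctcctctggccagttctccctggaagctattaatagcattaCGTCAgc
Maff: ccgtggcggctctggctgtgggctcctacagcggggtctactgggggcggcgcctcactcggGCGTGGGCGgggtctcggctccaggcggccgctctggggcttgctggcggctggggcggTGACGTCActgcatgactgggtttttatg
Jun: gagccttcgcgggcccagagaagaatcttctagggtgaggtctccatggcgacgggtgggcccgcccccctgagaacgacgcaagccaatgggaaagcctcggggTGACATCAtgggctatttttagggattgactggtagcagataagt

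The core letters of the CRE, TGACG, stood in the windows of Fos, 129 and 66 bases before the start, of Junb, 106 bases before it, of Atf3, 7 bases before it on the opposite strand (read there as CGTCA), and of Maff. They were found in 5 of the 9 windows, against 20.8% of all 32851 RefSeq windows of the same length. By gene these were 4 of the 7. The window of Jund and that of the first start of Maff held no searched motif. The complete palindrome TGACGTCA, which contains the core letters on both strands, was found in 1 window, that of the second start of Maff, 29 bases before it, against 1.79% of all windows. Jun held TGACATCA 45 bases before its start, a form that matches TGACNTCA, and so did the third start of Maff. TGACNTCA was added to the search after the promoters had been read, and it was matched by 3 of the 9 windows, against 8.83% of all. No window held TGANTCA, the TRE as searched (7.81% of all windows), or a CArG box (1.63%). Letters more than 250 bases before a start were not searched, and Fosl1 and Egr1 had no window. Whether CArG boxes stand in those stretches was not tested. The EGR motif GCGNGGGCG was found before Fosl2 and before the second start of Maff, 79 and 88 bases from the start (5.55% of all windows), and the TATA box TATAAA in the windows of Fos, 33 bases before the start, and of Junb (13.6%). In Junb it begins at base 1 of the annotated transcript, and the distances in Junb hold for that annotated start only. These matches describe letters within a short window, and binding was not measured here.

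The arrays carry the signature of the labelled cells. Of 5 adipocyte markers read, Fabp4 and Adipoq had signals of 7490.0 and 4986.4 at 0 h. Ucp1, the uncoupling protein of brown fat, was the 1 of these 5 called, at 1.31 and 1.49 on the log2 scale at 1 h and 2 h. Of all genes, 1.58% and 2.73% were called higher at these times. The 4 kept probe sets of Fabp4 ranged from -0.08, on the one read, to 0.92 at 2 h. All 6 macrophage and leukocyte, 4 endothelial and 4 muscle markers stayed below 100 on every array, with the highest signal of the 3 lists in Cd14, a monocyte marker, at 34.6, 41.8 and 93.2 at 0, 1 and 2 h. The 4 preadipocyte and fibroblast markers that were read, among them Col1a2 at 4132.8 at 0 h, had log2 ratios between -0.18 and 0.14 at 1 h and between -0.07 and 0.18 at 2 h. The 7 housekeeping genes read ranged from -0.34 to 0.12 at 1 h and from -0.12 to 0.14 at 2 h.

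At 1 h of ISO, 6 of the 9 genes were at least 1.74-fold (a log2 ratio of 0.8) above 0 h: Fos, Fosl1, Fosl2, Junb, Atf3 and Maff. The threshold is the size of change that the study used for ISO-induced genes at 1 h, and is not a test. None was that much lower. Of all 6896 genes read, 1.58% were called higher and 0.218% lower at 1 h. At 2 h Jun joined the 6, so that 7 of the 9 genes were higher and none lower, against 2.73% and 0.812% of all genes. The 9 genes were chosen with earlier results of these data known. The shares of all genes therefore give a scale only, and the excess over them is no independent result. Jund and Egr1 passed at neither time. All 9 genes had a higher signal than at 0 h on both arrays with ISO, and the median over the 9 log2 ratios was 1.58 at 1 h and 1.63 at 2 h, beside -0.02 and -0.07 over all genes. In whole-culture RNA, more cells that express a gene and more RNA per cell cannot be told apart.

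A gene was read where a probe set reached a signal of 100 on at least 1 array, and 10 of the 13 probe sets did so, with at least 1 for each of the 9 genes. Fos, Junb and Fosl1 were below 100 at 0 h and reached it only under ISO, so that being read already required a higher signal there. The other 6 genes were at least 100 on all 3 arrays. Among these 6, 3 were higher at 1 h and 4 at 2 h, against 0.907% and 1.77% of the 6173 genes with 100 on all arrays. The probe set of Junb, with a highest signal of 153.6, and that of Fosl1, with 168.6, were the nearest above the limit. The nearest below it was the second probe set of Fosl2, with a highest signal of 57.6.

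**Figure D1:**
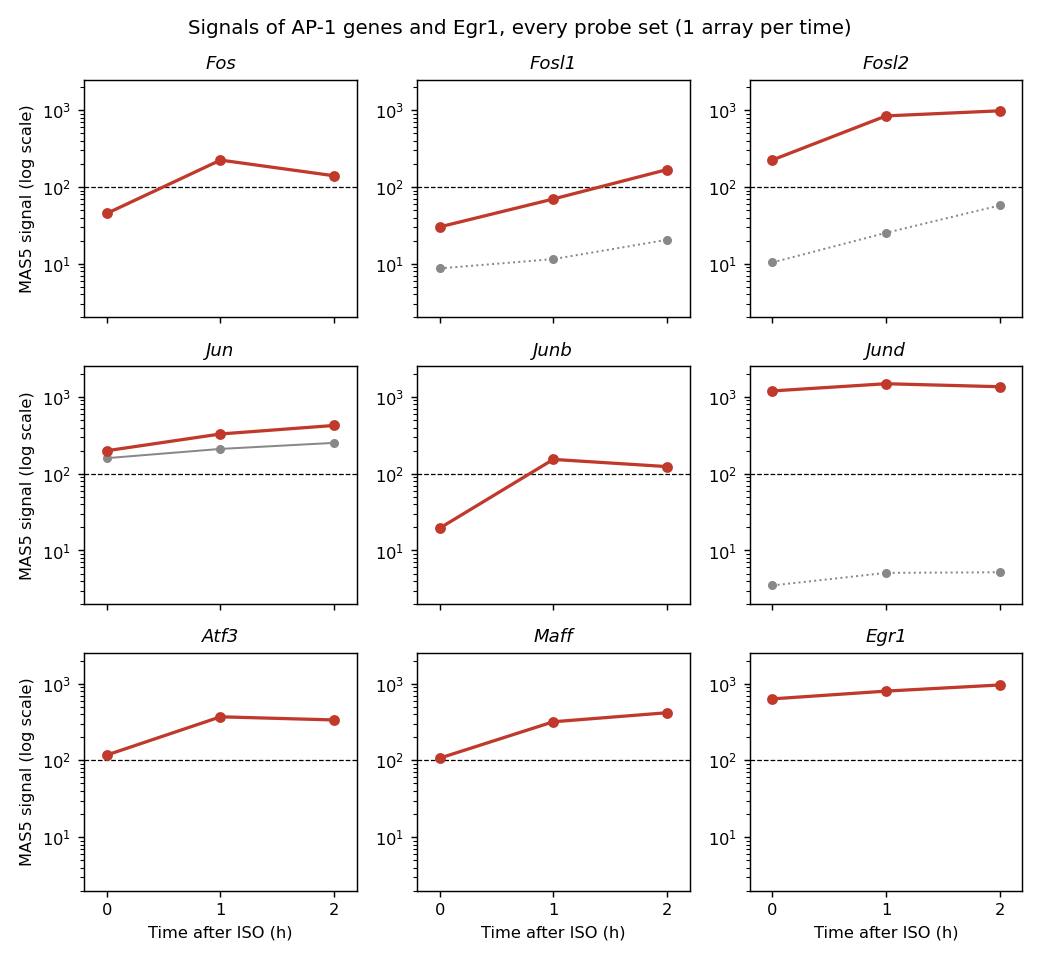
Course of the 13 probe sets, with h of ISO on the horizontal axis and MAS5 signal on a logarithmic vertical axis; each point is 1 array and has no error bar. The probe set read for the gene is red, others are grey (dotted where below 100 on all arrays), and the dashed line marks 100; Fos, Junb, Jund and Atf3 are highest at 1 h and the other 5 genes at 2 h.

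Among the FOS genes the courses differed. Fos, the prototype of the family, had signals of 45.3, 224.4 and 140.1 at 0, 1 and 2 h. It was highest at 1 h, 4.95-fold above 0 h (log2 ratio 2.31, with a spread of 0.20 among the 500 probe sets of nearest signal), and 3.09-fold above 0 h at 2 h (1.63, spread 0.29). The 0 h signal was dim, and with signals below 100 set to 100 Fos had a log2 ratio of 1.17 at 1 h and fell short of the threshold at 2 h, with 0.49. The step of Fos in the second hour was -0.68 on the log2 scale, against a spread of 0.23, and ranked 35 from the bottom of the 6896 genes.

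Fosl2, which encodes FRA-2, had signals of 225.0, 844.7 and 983.8. At 1 h its log2 ratio was 1.91 (spread 0.13), and 2 h gave 2.13 (spread 0.19), so that 81.7% of the rise in signal seen at 2 h had been reached by 1 h. The difference of 0.22 between 2 h and 1 h was close to the spread of 0.15. Of the 6 genes above 100 on all arrays, Fosl2 had the largest ratio at both times.

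Fosl1, which encodes FRA-1, had signals of 30.2, 69.8 and 168.6 and passed 100 only at 2 h. On the log2 scale it stood 1.21 above 0 h at 1 h (spread 0.25) and 2.48 above it at 2 h (spread 0.34), and 28.6% of the 2 h rise had been reached by 1 h, the lowest share among the 5 genes that were highest at 2 h. Fosl1 was the 1 gene of the 9 called higher at 2 h over 1 h, at 1.27 (spread 0.28), where 0.667% of all genes were higher, 0.319% lower, and none of the 9 was lower. The signals at 0 and 1 h lay below 100, and raising them to 100 left a log2 ratio of 0.00 at 1 h and put 2 h at 0.75 above either earlier array, which ends all 3 calls.

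The JUN genes, whose products are the partners of FOS proteins, split further. Junb had signals of 19.5, 153.6 and 123.8. It had the highest ratio of the 9 genes at both times, 7.88-fold at 1 h (log2 ratio 2.98, spread 0.26) and 6.35-fold at 2 h (2.67, spread 0.34), and ranked 11 and 16 among the 6896 genes. This ratio stands on a dim 0 h signal: with signals below 100 set to 100 it was 0.62 at 1 h and 0.31 at 2 h, below the threshold. The difference between 2 h and 1 h, -0.31, was close to the spread of 0.25.

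Jun, which encodes c-JUN, had signals of 199.3, 329.4 and 425.5 on the probe set read for it. At 1 h it had a log2 ratio of 0.72 (spread 0.14), short of the threshold, and it passed with 1.09 at 2 h (spread 0.21). The other kept probe set of Jun had 159.5, 210.4 and 252.3, with log2 ratios of 0.40 at 1 h and 0.66 at 2 h, and did not pass at either time. The order 2 h, 1 h, 0 h from high to low was common to both probe sets, and the call of Jun at 2 h rests on the brighter one.

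Jund, a JUN gene that is expressed without stimulation in many tissues, had signals of 1198.5, 1487.2 and 1360.0. Its log2 ratios were 0.31 at 1 h (spread 0.12) and 0.18 at 2 h, where the spread was also 0.18. The values at 2 h and 1 h differed by -0.13, within the spread of 0.15. Its second probe set stayed at or below 5.2 on all arrays.

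Atf3, which encodes a bZIP factor of the stress and cyclic AMP responses, had signals of 117.5, 369.8 and 336.4. Over 0 h it had log2 ratios of 1.65 (1 h, spread 0.16) and 1.52 (2 h, spread 0.27), and the values at 2 h and 1 h differed by -0.14, within the spread of 0.20. Maff, whose product lacks a transactivation domain and pairs with other bZIP proteins, had signals of 106.9, 318.6 and 417.8. Over 0 h it had log2 ratios of 1.58 (1 h, spread 0.16) and 1.97 (2 h, spread 0.28), and the second hour added 0.39 (spread 0.19). Both genes were at least 100 on all arrays, so that setting low signals to 100 left their ratios as they were.

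Egr1 had signals of 633.3, 799.2 and 960.9. Over 0 h it had log2 ratios of 0.34 (1 h, spread 0.13) and 0.60 (2 h, spread 0.19), larger than the spread and below the threshold at both times. At 1 h Egr1 ranked 350 of the 6896 genes, near Jund at 391 and behind Jun at 122, whereas the other 6 genes ranked between 11 and 65. Its order was 2 h, 1 h, 0 h from high to low, and 50.6% of the 2 h rise had been reached by 1 h.

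**Figure D2:**
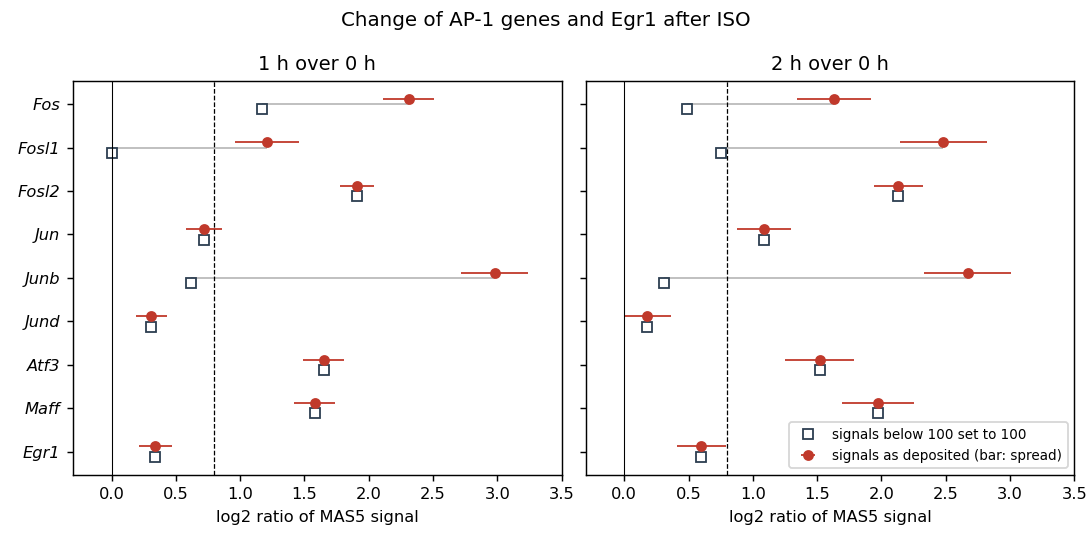
Log2 ratio of MAS5 signal (horizontal axis) for 1 h over 0 h (left) and 2 h over 0 h (right), 1 row per gene and 1 array per time point. Red points are ratios of the deposited signals, with bars for the spread among the 500 probe sets of nearest mean signal; open squares are ratios with signals below 100 set to 100, which moves Fos, Fosl1 and Junb and leaves the other 6 in place; the dashed line marks 0.8.

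Seen across the set, Fos, Junb, Jund and Atf3 were highest at 1 h, and Fosl1, Fosl2, Jun, Maff and Egr1 at 2 h. Of the 4 with a lower signal at 2 h than at 1 h, the difference was 2.9 times the spread for Fos, 1.3 times for Junb, and within the spread for Atf3 and Jund. Of all 109 genes called higher at 1 h, 51 had a lower signal at 2 h than at 1 h. With signals below 100 set to 100, Fosl2 (1.91), Atf3 (1.65), Maff (1.58) and Fos (1.17) kept their calls at 1 h, and Fosl2 (2.13), Maff (1.97), Atf3 (1.52) and Jun (1.09) at 2 h, whereas Fos had 0.49 there. The calls of Fosl2, Atf3 and Maff at both times and of Jun at 2 h did not involve a signal below 100.

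**Figure D3:**
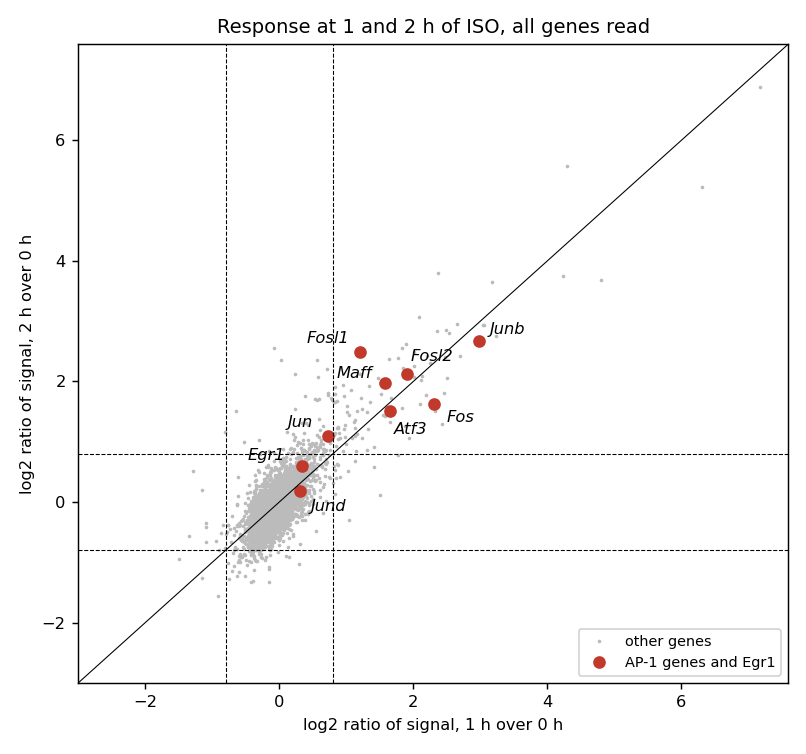
Log2 ratio of MAS5 signal at 1 h over 0 h (horizontal axis) against 2 h over 0 h (vertical axis) for the 6896 genes read, which share the 0 h array; the 9 genes are red and named. Dashed lines mark 0.8 and -0.8 and the solid line equal ratios; Fosl1 lies above the line at 1.21 and 2.48, and Fos below it at 2.31 and 1.63.

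The genes whose pair of log2 ratios (1 h over 0 h and 2 h over 0 h, 3 arrays) lay nearest to each of the 9 were listed by distance. The nearest to Fos were Id4 (2.33 and 1.51, distance 0.12), Kcne4 and Csrnp1. Nearest to Fosl2 were Arrdc3 (1.93 and 2.05, distance 0.082), Dnaja4 and Cxcl1, and nearest to Fosl1 was Adamts4 (1.21 and 2.13, distance 0.36), followed by Phlda1 and Pdk4. Junb lay nearest to Ier3, another immediate early gene (2.99 and 2.65, distance 0.021), then to Ptgs2 and Irs2, and Jun to Klb (distance 0.0021), Hk2 and Sh2b2. Atf3 had Cish (1.58 and 1.43, distance 0.12), Pim3 and Rasd1 beside it, and Maff had Pdk4 (1.48 and 2.06, distance 0.13), Fgf21 and Bcl3. The nearest to Jund were Zfp511, Rbmx2 and Ntmt1, and to Egr1 Dmxl1, Srxn1 and Snrnp48, within 0.019 and 0.016 in a part of the plot where genes are dense. The neighbours of Fos, Fosl1 and Junb rest on dim 0 h signals of these 3 genes, and in part of the neighbours themselves (22.7 for Id4, 34.5 for Adamts4): with signals below 100 set to 100, Junb itself has 0.62 and 0.31. Some neighbours of the other genes were below 100 at 0 h too, among them Dnaja4 (31.6), Fgf21 (43.3), Bcl3 (60.9) and Cish (82.2).

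Relatives of the 9 genes were read from lists, drawn up with earlier results of these data known. Of 10 other AP-1-related bZIP genes on the array, 4 reached a signal of 100, and none of these was called at 1 or 2 h. Over all genes read, 1.58% were called higher at 1 h and 2.73% at 2 h. The absence of calls in so short a list therefore says little about it. Jdp2, a repressor that pairs with JUN proteins, had 180.6, 195.8 and 146.9 at 0, 1 and 2 h. Atf2 had 465.9, 423.1 and 422.8. Maf, a large MAF gene, had log2 ratios of -0.28 and -0.44, and Mafg, a small MAF gene like Maff, had 0.17 and 0.04. The median of the 4 was -0.01 at 1 h and -0.22 at 2 h. Of the other EGR genes and the NAB corepressors of EGR proteins, 1 of 5 was read, Nab1, at -0.06 and 0.19.

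Of 8 CREB and serum response factors on the array 6 were read, and Crem was the 1 that was called, at 1.01 at 1 h and 1.58 at 2 h. Crem, which encodes activators and repressors at CREs, had signals of 38.9, 78.1 and 116.7, so that it was read only through the 2 h array. With signals below 100 set to 100 it had 0.00 and 0.22. Creb1 had 0.09 and -0.17, Srf had -0.17 and -0.44, and Elk4 had -0.05 and -0.07. The median of the 6 was 0.02 at 1 h and -0.07 at 2 h. None of 7 MAP kinases and related kinases that were read was called. Mapk8, which encodes the JUN kinase JNK1, had the highest ratios of these, 0.44 and 0.62, and the median was -0.01 and -0.09. None of 3 ubiquitin ligase genes that act on AP-1 proteins was called, and Cop1, whose product marks c-JUN for breakdown, had 0.08 and 0.01. At the shares of all genes given above, the absence of calls among so few kinases and ligases says little about them.

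Among textbook targets of AP-1, 6 of the 12 on the array were read. Of these 2 were higher at 1 h and 4 at 2 h, against 1.58% and 2.73% of all genes, and none was lower. Among the 4 with 100 on all arrays, none was higher at 1 h, and Hmox1 and Timp1 were at 2 h. The shares of genes with 100 on all arrays were 0.907% and 1.77%. The median was 0.63 at 1 h and 1.13 at 2 h over the 6 genes, 0.42 and 0.92 over the 4 with 100 on all arrays, and 0.24 and 0.54 over all 12. Il6, a cytokine gene, had signals of 20.7, 406.6 and 981.6, and Ptgs2, which encodes the inducible cyclooxygenase, had 53.2, 501.9 and 360.5, both from below 100, so that they were read only through the arrays with ISO. Hmox1 (haem oxygenase) and Timp1 (an inhibitor of matrix metalloproteinases) were called at 2 h, with log2 ratios of 1.19 and 1.07, after 0.61 and 0.23 at 1 h. Vegfa (0.65 and 0.78) and Cd44 (0.13 and 0.40) were not called. Mmp3, Mmp9, Mmp13, Plau, Plaur and Ccnd1 stayed below 100 on all arrays. Of textbook targets of EGR1, 2 of 6 were read and none was called, with Thbs1 at 0.74 and 0.78 and F3 at 0.21 and 0.38; the other kept probe set of Thbs1 had 0.85 at 1 h. Whether AP-1 or EGR1 acts on any of these genes in iBATs was not tested.

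**Figure D4:**
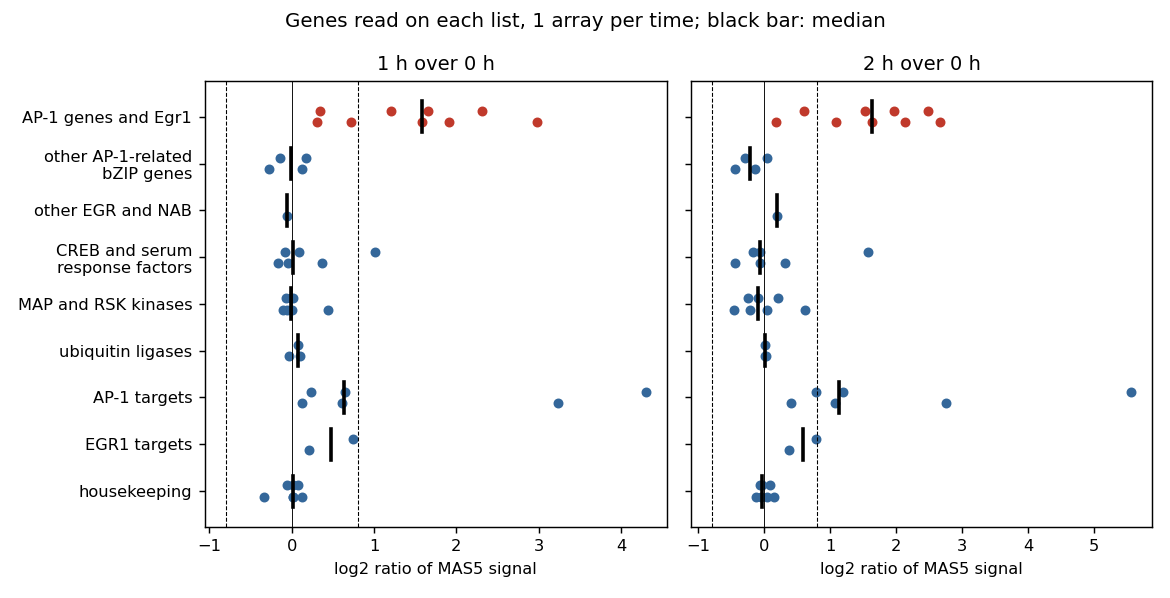
Log2 ratio of MAS5 signal (horizontal axis) at 1 h over 0 h (left) and 2 h over 0 h (right) for the genes read on each list, 1 point per gene. Medians are drawn as black bars and the threshold as dashed lines at 0.8 and -0.8. The 9 genes are red, with medians of 1.58 and 1.63, and the 4 other AP-1-related bZIP genes have -0.01 and -0.22. The genes and lists were chosen with earlier results of these data known. Fos, Junb and Fosl1, among the 9, were read only through arrays with ISO.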

How the data were processed

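RNA of differentiated iBATs was measured on 3 arrays, 1 each at 0, 1 and 2 h of ISO. The authors hybridized labelled cRNA to Affymetrix mouse genome arrays and computed intensity values (MAS5 signals) with GeneChip Analysis Suite 5.0, and the submitters' processing notes name MAS5. The deposited intensity values are linear, average 100.0 on each array once 2% is trimmed from each end, and hold no filter on low values. No further scaling was applied. The number of arrays limits the precision and left no basis for a p-value.

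Probe sets were named from the platform annotation of the archive and RefSeq gene identifiers: of 45101, 9211 had no name here, 34958 had a single symbol, and the 932 with several were left out. A probe set was kept if any array reached 100, and the brightest on average was read for each gene. Log2 ratios were computed in Python 3.11.15 (numpy 2.4.6, pandas 2.3.3). A log2 ratio of 0.8 (1.74-fold) in either direction was called, with 0.1 for a signal of 0. The spread is the scaled median absolute deviation of the log2 ratio among the 500 probe sets of nearest mean signal, and it holds real change as well as noise. The calculation was tested on simulated data.

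Named are all 9 genes, the called genes of each list and up to 4 others of high signal, and the 3 genes of nearest response to each of the 9. Genes below the filter that are given with values were picked with those values in view. The 9 genes, the lists and the rule were chosen with earlier results of these data known. Promoter windows (250 bases before to 50 after a transcript start, GRCm38.p6) came from RefSeq. The 13 alternatives were other filters (100 on each of the 3 arrays, 100 on either array of a comparison, 200 on any array, none), low signals set to 100 or 32 added, other scaling (same median, quantile, cyclic loess in limma 3.58.1, R 4.3.3), other choices of probe set (median, any kept, suffixed ones left out) and a 2-fold threshold. Figures were drawn with matplotlib 3.10.9.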

Additional observations from a re-analysis of the deposited data

Results flagged for a closer look

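Probe sets below a signal of 100 on all arrays were outside the main reading, and those of Fosl1 and Fosl2 were above their 0 h value. The second probe set of Fosl2 had signals of 10.4, 25.3 and 57.6 at 0, 1 and 2 h, 2.47 above 0 h on the log2 scale at 2 h (spread 0.51), beside 2.13 for the probe set read for the gene. The second probe set of Fosl1 had 8.7, 11.5 and 20.5, 1.24 above 0 h at 2 h (spread 0.60), beside 2.48.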

How the results depend on the processing

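With 100 required on all 3 arrays, Fos, Fosl1 and Junb are not read, and the 6 genes higher at 1 h are 3, the 7 at 2 h are 4, and the 1 higher at 2 h over 1 h is 0. With signals below 100 set to 100, 4 genes are higher at 2 h and 0 at 2 h over 1 h, and with 200 required on 1 or more arrays, which drops Fosl1 and Junb, 0 are higher at 2 h over 1 h. The other counts of the 9 genes stayed within 1.5 times of their value under all 13 alternatives, and none of the 9 was called lower under any. At 1 h the count was 4 with signals below 100 set to 100 and with 200 required. Of all genes, 77 of 6896 and 79 of 4774 were higher at 1 h under these settings. Without a filter 6 of the 9 were higher at 1 h and 7 at 2 h. There, 2181 and 2410 of all 18194 genes were higher too, so these unchanged counts stand against a much larger share. Of 308 log2 ratios of single genes over 12 alternatives, 301 kept their side of the threshold and 7 fell below it: those of Fos at 2 h, of Junb at 1 h and 2 h and of Fosl1 in all 3 comparisons with signals below 100 set to 100, and that of Fosl1 at 1 h with 32 added (0.71). None reversed. The filters and the choices of probe set only decide which probe sets are read. Of the 9 genes, only Jun had more than 1 kept probe set. For the others these settings return the main ratio wherever the gene is read, so that many of the 301 could not differ. Only setting low signals to 100, adding 32 and the other scaling could move the ratios of those genes. Without a filter, the medians of the AP-1 targets were 0.24 at 1 h and 0.54 at 2 h. No paired analysis was possible because each time point has 1 array. With no replicate, array-specific error in Fos, Junb and Fosl1 at 0 h, where signals are dim, cannot be told apart from change.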

Other observations

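Relatives below a signal of 100 on all arrays are given as values only, and those with values here were picked with the values in view. Fosb, the FOS gene not read above, was at 0.7 at 0 h, 11.8 at 1 h and 4.7 at 2 h. Egr2, a paralog of Egr1, was at 26.3, 48.7 and 52.4. Nab2, whose product restrains EGR proteins, was at 50.4, 99.3 and 84.2, just under the limit at 1 h. Mafk, a small MAF gene like Maff, was at 53.8, 66.7 and 44.8. Of the other such relatives, Batf, Batf3 and Egr4 were lower than at 0 h on both arrays with ISO. Batf2 and Atf7 were higher on both, and Egr3 was higher at 1 h and lower at 2 h.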
